A study of Mus musculus with 10 samples.

Results

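Myelin and mature oligodendrocyte genes were examined as a group of 33 genes in the cerebral cortex of Crtc1-/- and WT mice. The list was drawn up by known role, with earlier results of these data known. It holds structural proteins of the myelin sheath, enzymes that make its lipids, transcription factors of the lineage, and secreted, receptor and cytoskeletal proteins enriched in mature oligodendrocytes. Of these genes 31 were measured, among 18193 genes in all, each through the probe set with the highest mean among those that name only that gene. The single probe set for Trf (transferrin) also names another gene, and no probe set was listed for Enpp2 (autotaxin), so neither has a value here. The animals were 5 Crtc1-/- and 5 WT females of the C57BL/6N strain, adults of 2 months without treatment, each hybridized to its own GeneChip Mouse Genome array (Affymetrix). WT mice were littermates of the mutants, and per the study's methods mice of both genotypes lived alone from the age of 5 weeks. Crtc1-/- mice lack CRTC1, a coactivator of the transcription factor CREB, and the labels restrict the loss to no cell type.

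Oligodendrocytes wrap axons in stacked membrane, the myelin sheath, which speeds conduction and feeds the axon. The compact sheath is held together by basic and tetraspan proteins, while the loops at its edges keep cytoplasm and carry the proteins that face the axon. SOX10 and MYRF switch on most of these genes when a precursor matures, and in the cortex myelin is sparse compared with white matter and keeps being added in young adults. In RNA from whole tissue, a change in the number of oligodendrocytes and a change in the RNA made by each cell cannot be told apart.

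The arrays were similar as a whole, with medians between 5.29 and 5.32 on the log2 scale and correlations of at least 0.994 between any pair. Crtc1 read 5.96 to 6.60 in Crtc1-/- mice, against 9.51 to 9.86 in WT mice, so each array matched its label. The neuronal markers of cortex were bright (mean 11.86 in Crtc1-/- and 11.85 in WT mice), whereas markers of choroid plexus averaged 4.46 in Crtc1-/- and 4.41 in WT mice. The measured myelin genes themselves lay between the 52.6th percentile of all probe sets (Nkx6-2) and the 99.98th (Mbp) by mean signal. No detection test was run, and Nkx6-2, at 5.25 to 5.72 in WT mice, lay near the array medians. Signals of different probe sets do not rank transcripts, and terms such as bright and dim refer to signal only.

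The myelin genes read slightly higher in Crtc1-/- cortex, nearly all of them in the same direction, but no single gene passed the test. The log2 fold change was above 0 for 30 of the 31 genes, where 48.4% of all genes were above 0. Their median was 0.17, or 1.13-fold, against −0.003 over all genes, and the values ran from −0.003 (Nfasc) to 0.50 (Adamts4). With limma and correction over all genes 0 members were called, where 0.308% of all genes were called higher, and the smallest adjusted p was 0.126 (Gjb1). At an unadjusted p below 0.05 there were 15 members, all higher, where 4.33% of all genes were higher at that level. All Crtc1-/- arrays were above all WT arrays for Gjb1 and Sox10, which is 2 of 31 members, where 1.1% of all genes had this pattern. The count of 15 rested on particular animals: it was 8 without WT 1, 8 without WT 2, 8 without Crtc1-/- 3 and 9 without Crtc1-/- 4, and 8 with the mean of hippocampal markers as a covariate. It was higher under others, at 20 without WT 5, 19 without Crtc1-/- 5, 20 with the astrocyte or the striatal marker mean as a covariate, and 21 with a trended and robust variance prior. The alternatives for this count were chosen after the values were seen. The hippocampal marker mean was dim, below the array medians, and itself differed between genotypes (4.74 in Crtc1-/- mice, against 4.87 in WT mice). As a covariate it is therefore hard to separate from genotype. With genotype means removed it had r = −0.03 with the mean over the 31 genes. The number above 0 was 30 or 31 whichever array was left out. Split by source, the 22 genes made mainly by oligodendrocytes in cortex had a median of 0.20 (22 of 22 above 0), and the 9 measured genes that other cortical cells also make had 0.13 (8 of 9 above 0).

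**Figure D1:**
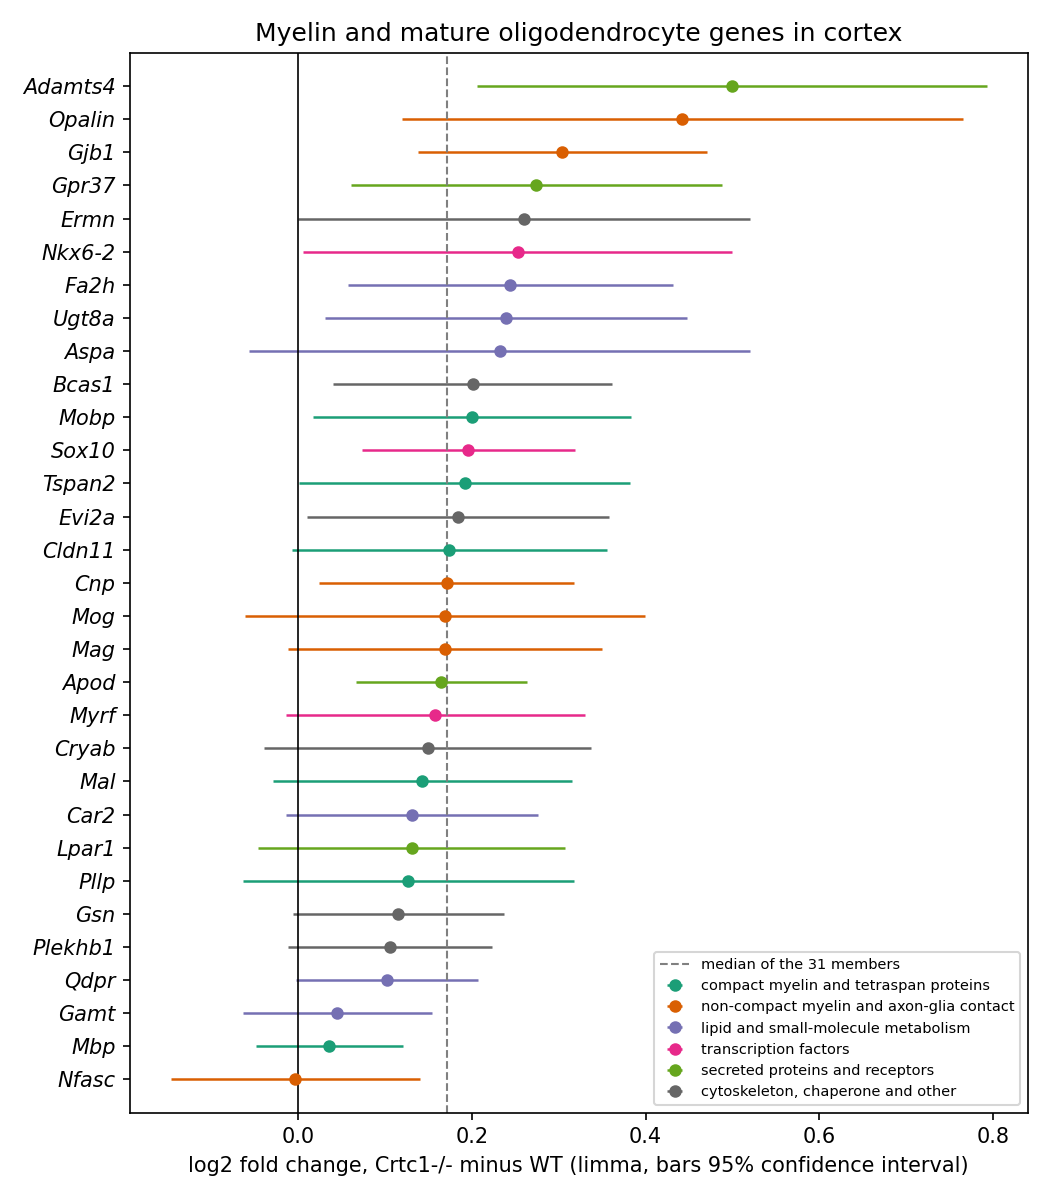
Log2 fold change (Crtc1-/- minus WT) of the 31 measured myelin and mature oligodendrocyte genes, ordered by size and coloured by role, with 95% confidence intervals from limma (n = 5 mice per genotype). All points except Nfasc lie right of 0, most lie near the dashed median of 0.17, and Adamts4 and Opalin stand farthest out with the widest intervals.

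The mean over the 31 genes was 9.61, 9.64, 9.81, 9.71 and 9.56 in Crtc1-/- mice 1 to 5, against 9.39, 9.33, 9.54, 9.54 and 9.59 in WT mice 1 to 5. Only WT 5 lay above the lowest mutant, Crtc1-/- 5, and the mutants spread about as widely as the controls. The group means were 9.67 ± 0.10 in Crtc1-/- mice, against 9.48 ± 0.11 in WT mice (SD, n = 5 each), a difference of 0.19, which is given as a description without a test. The genes shared their highest and lowest animals: Crtc1-/- 3 was the highest of all 10 arrays for 24 of the genes, whereas WT 2 was the lowest for 21 and WT 1 for 6. Compared with the WT mean of each gene, 23, 31, 30, 30 and 22 genes were above it in Crtc1-/- mice 1 to 5. In WT mice the counts were 6, 2, 25, 24 and 27, so WT 1 and WT 2 stood below the other controls across almost the whole list. Without WT 2 the difference in the mean over the genes was 0.15, and without Crtc1-/- 3 it was also 0.15.

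**Figure D2:**
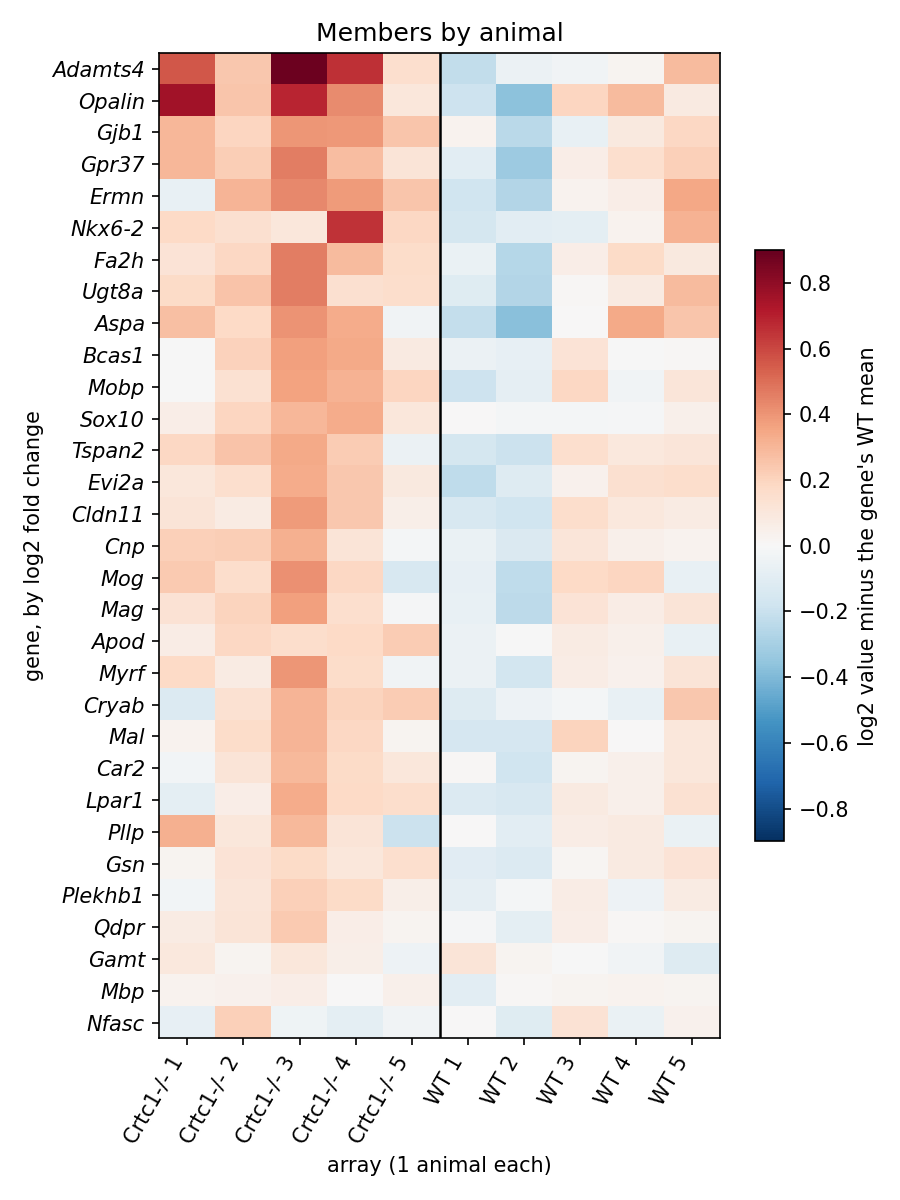
Value of each measured myelin gene (rows, by log2 fold change) in each animal (columns, Crtc1-/- 1 to 5 and then WT 1 to 5), as the log2 value minus that gene's WT mean. Crtc1-/- 3 is red down almost the whole column and WT 1 and WT 2 are mostly blue, while Mbp, Gamt and Nfasc at the bottom are pale in nearly every animal.

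Among compact myelin and tetraspan proteins all 6 genes were above 0, 2 of them at an unadjusted p below 0.05 (Mobp and Tspan2). Mbp, the basic protein that zips the inner faces of the membrane together, read 13.58, 13.59, 13.61, 13.55 and 13.60 in Crtc1-/- mice 1 to 5, against 13.45, 13.56, 13.57, 13.58 and 13.58 in WT mice 1 to 5. Its signal was the brightest of the list, 4 of 5 mutants were above every control, and WT 1 was low, yet the log2 fold change was only 0.04 (SE 0.04, limma, adjusted p = 0.852). Mobp, a second basic protein of compact myelin, averaged 12.15 ± 0.15 in Crtc1-/- mice, against 11.95 ± 0.15 in WT mice (SD, n = 5 each). Mal and Pllp, proteins of lipid rafts, and Cldn11, the claudin of myelin tight junctions, had log2 fold changes of 0.14, 0.13 and 0.17, and the tetraspanin Tspan2 had 0.19. The value of Pllp rested on single animals, at 0.08 without Crtc1-/- 1 and 0.21 without Crtc1-/- 5, and it was 0.02 with the hippocampal marker mean as a covariate. That of Mbp was 0.01 without WT 1.

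The proteins of non-compact myelin and of contact with the axon were the most varied role, from Opalin at 0.44 to Nfasc at −0.003, with 3 of 6 at an unadjusted p below 0.05 (Opalin, Gjb1 and Cnp). Opalin, a sialylated membrane protein found in oligodendrocytes of the central nervous system, read 8.73, 8.22, 8.66, 8.40 and 8.07 in Crtc1-/- mice 1 to 5, against 7.79, 7.60, 8.17, 8.26 and 8.05 in WT mice 1 to 5. Crtc1-/- 1, 3 and 4 were above every control while Crtc1-/- 2 and 5 were within the WT range. Its log2 fold change was 0.44 (SE 0.15, limma, adjusted p = 0.303). Gjb1, connexin 32, which forms gap junctions between layers of the sheath and with other glia, read 6.55, 6.45, 6.65, 6.64 and 6.50 in Crtc1-/- mice 1 to 5, against 6.29, 6.02, 6.19, 6.35 and 6.45 in WT mice 1 to 5. The groups did not overlap, although Crtc1-/- 2 and WT 5 nearly met, and the log2 fold change of 0.30 (SE 0.08, 1.23-fold) missed the threshold after correction (limma, adjusted p = 0.126).

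Mog, a protein of the outermost sheath surface, read 8.76, 8.68, 8.93, 8.71 and 8.38 in Crtc1-/- mice 1 to 5, against 8.45, 8.29, 8.70, 8.72 and 8.45 in WT mice 1 to 5. The groups overlapped broadly, with Crtc1-/- 5 below all controls except WT 2, and the log2 fold change was 0.17 (SE 0.11, limma, adjusted p = 0.686). It was 0.11 without Crtc1-/- 3, 0.11 without WT 2 and 0.08 with the hippocampal marker mean as a covariate. Nfasc, neurofascin, which anchors the sheath beside the node of Ranvier and which neurons also make, read 9.28, 9.56, 9.31, 9.26 and 9.31 in Crtc1-/- mice 1 to 5, against 9.35, 9.24, 9.48, 9.29 and 9.39 in WT mice 1 to 5. Apart from Crtc1-/- 2 the mutants sat in the lower part of the WT range, and the log2 fold change of −0.003 (SE 0.07, limma, adjusted p = 0.993) was the only one not above 0. Mag, an adhesion protein facing the axon, and Cnp, an enzyme of the cytoplasmic channels, had log2 fold changes of 0.17 each, and without WT 2 that of Mag was 0.11.

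All 6 enzymes of lipid and small-molecule metabolism were above 0, and the lipid enzymes Fa2h (fatty acid hydroxylation, 0.24) and Ugt8a (galactosylceramide synthesis, 0.24) were the 2 at an unadjusted p below 0.05. Aspa, which splits N-acetylaspartate into acetate for lipid synthesis, had 0.23 with a wide interval (−0.06 to 0.52), and Car2, carbonic anhydrase, had 0.13. Without WT 2 these were 0.14 and 0.09. Qdpr, which regenerates tetrahydrobiopterin, read 12.22, 12.26, 12.38, 12.21 and 12.17 in Crtc1-/- mice 1 to 5, against 12.14, 12.06, 12.21, 12.16 and 12.17 in WT mice 1 to 5. Mutants 1 to 4 were above all controls by small margins, for a log2 fold change of 0.10 (SE 0.05, limma, adjusted p = 0.532). Gamt, the last enzyme of creatine synthesis, read 7.29, 7.22, 7.30, 7.25 and 7.15 in Crtc1-/- mice 1 to 5, against 7.31, 7.22, 7.20, 7.17 and 7.08 in WT mice 1 to 5. Here WT 1 was the highest of all animals and the groups overlapped throughout, with a log2 fold change of 0.04 (SE 0.05, limma, adjusted p = 0.855) that was 0.07 without WT 1 and 0.02 without WT 5.

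The 3 transcription factors were all above 0, Sox10 and Nkx6-2 at an unadjusted p below 0.05. Sox10, which acts throughout the lineage, read 8.55, 8.68, 8.79, 8.83 and 8.59 in Crtc1-/- mice 1 to 5, against 8.49, 8.47, 8.47, 8.48 and 8.54 in WT mice 1 to 5. The WT values were tightly packed (SD 0.03), every mutant was above them, the gap between Crtc1-/- 1 and WT 5 was small, and the log2 fold change was 0.20 (SE 0.06, limma, adjusted p = 0.193). Myrf, needed for precursors to become myelinating cells, read 8.64, 8.54, 8.86, 8.63 and 8.43 in Crtc1-/- mice 1 to 5, against 8.41, 8.30, 8.53, 8.50 and 8.58 in WT mice 1 to 5. Mutants 1, 3 and 4 exceeded all controls, mutants 2 and 5 did not, and the log2 fold change was 0.16 (SE 0.08, limma, adjusted p = 0.564), or 0.10 without Crtc1-/- 3. Nkx6-2, a homeodomain factor of myelinating cells and the dimmest gene of the list, had 0.25, of which Crtc1-/- 4 at 6.05 gave a large part: without this animal the value was 0.15.

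Of the 4 measured secreted proteins and receptors 3 were at an unadjusted p below 0.05. Adamts4, a protease that cleaves matrix proteoglycans and is made by mature oligodendrocytes in brain, read 7.28, 6.96, 7.60, 7.38 and 6.88 in Crtc1-/- mice 1 to 5, against 6.50, 6.67, 6.69, 6.75 and 7.01 in WT mice 1 to 5. Crtc1-/- 1, 3 and 4 were above every control and only WT 5 reached the level of the lower mutants. The log2 fold change of 0.50 (SE 0.13, 1.41-fold) was the largest of the list and did not pass correction (limma, adjusted p = 0.158). Gpr37, an orphan receptor that holds back early myelination in mice, read 9.17, 9.09, 9.33, 9.15 and 8.99 in Crtc1-/- mice 1 to 5, against 8.77, 8.55, 8.93, 9.02 and 9.08 in WT mice 1 to 5. All mutants except Crtc1-/- 5 were above all controls, for 0.27 (SE 0.10, limma, adjusted p = 0.341). Apod, a lipid-carrying lipocalin, had 0.16 with the narrowest spread of this role (10.78 ± 0.06 in Crtc1-/- mice, against 10.61 ± 0.06 in WT mice, SD, n = 5 each, limma, adjusted p = 0.169), and the lysophosphatidic acid receptor Lpar1 had 0.13, or 0.08 without Crtc1-/- 3.

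The cytoskeletal, chaperone and other genes gave 6 of 6 above 0, with Ermn, Bcas1 and Evi2a at an unadjusted p below 0.05. Ermn, an actin-binding protein of mature oligodendrocytes, read 9.11, 9.48, 9.61, 9.56 and 9.43 in Crtc1-/- mice 1 to 5, against 9.00, 8.92, 9.22, 9.24 and 9.53 in WT mice 1 to 5. Crtc1-/- 1 lay among the controls and WT 5 among the mutants, and the log2 fold change was 0.26 (SE 0.12, limma, adjusted p = 0.507). Plekhb1, a membrane-associated protein with a pleckstrin homology domain, read 11.80, 11.93, 12.04, 11.99 and 11.88 in Crtc1-/- mice 1 to 5, against 11.74, 11.80, 11.89, 11.78 and 11.89 in WT mice 1 to 5. Crtc1-/- 1 and 5 were within the WT range, and the log2 fold change was 0.11 (SE 0.05, limma, adjusted p = 0.573). The actin-severing protein gelsolin (Gsn) and the small heat shock protein αB-crystallin (Cryab) had 0.11 and 0.15.

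To see which genes exceeded or lagged the shift shared by the list, each gene was set against the mean of the other 30 in the same animal. Adamts4 stood at 0.32 and Mbp at −0.16 relative to the others (exact permutation tests, two-sided, n = 5 each, p = 0.0476 and p = 0.0317). These were 2 of 31 such tests below 0.05, and the smallest p this design allows is 0.00794. Both rest on the brightest probe set of the gene. The other bright probe sets of Mbp had log2 fold changes of 0.06 to 0.14 and were not set against the members. The value of Mbp is therefore for 1 probe set only. A difference from the mean also takes a gene to move 1 for 1 with the others. Within genotypes the slope on the others was 0.15 for Mbp and 1.79 for Adamts4. Opalin exceeded the others by 0.26 (exact permutation test, p = 0.0952), Gjb1 by 0.12 (exact permutation test, p = 0.0794), and Nfasc and Gamt stood at −0.20 and −0.15 (exact permutation tests, p = 0.0635 and p = 0.175). In limma with the mean of the other members as a covariate, 0 of the 31 genes were called, where 0.198% of all genes were called in either direction. That fit estimates the slope, and it put Mbp at 0.01 (SE 0.06, unadjusted p = 0.911) and Adamts4 at 0.18 (SE 0.14, unadjusted p = 0.204). The lowest p in that fit was that of Apod, 0.16 above what the other genes gave (unadjusted p = 0.0335, adjusted p = 0.800). Genes with a larger spread between animals of a genotype had the larger fold changes (Spearman rho 0.71 across the 31 genes, which are not independent), and dimmer genes had larger ones than bright genes (rho −0.43). The part of signal level in these differences was not tested.

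The 31 genes also moved together among animals of the same genotype. After each genotype's mean was removed, the median Pearson r over the 465 pairs of genes was 0.56 across 10 arrays, against 0.03 over pairs of all genes, and 415 pairs (89.2%) were above 0, against 52.7% of all pairs. The first principal component held 56.7% of the variance of the standardized members and 18.8% of that of all genes. Agreement with the mean of the other members was closest for Cldn11 (r = 0.95), Mag (0.94), Gpr37 (0.92), Fa2h (0.91) and Myrf (0.91), and 22 genes were above 0.7. The tightest pair was Mag and Qdpr (r = 0.94). Outside this common movement were Gamt (r = −0.23), Apod (0.04) and Nfasc (0.16), and the lowest pair was Gsn and Gamt (r = −0.71). Sox10 (0.59) followed the others less closely than Myrf, and Sox10 and Opalin were nearly unrelated (0.09). These correlations describe 10 arrays, in which any difference that touches a whole array enters every pair, and they carry no test. The pattern leaned on Crtc1-/- 3, since the median r was 0.49 without this animal.

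**Figure D3:**
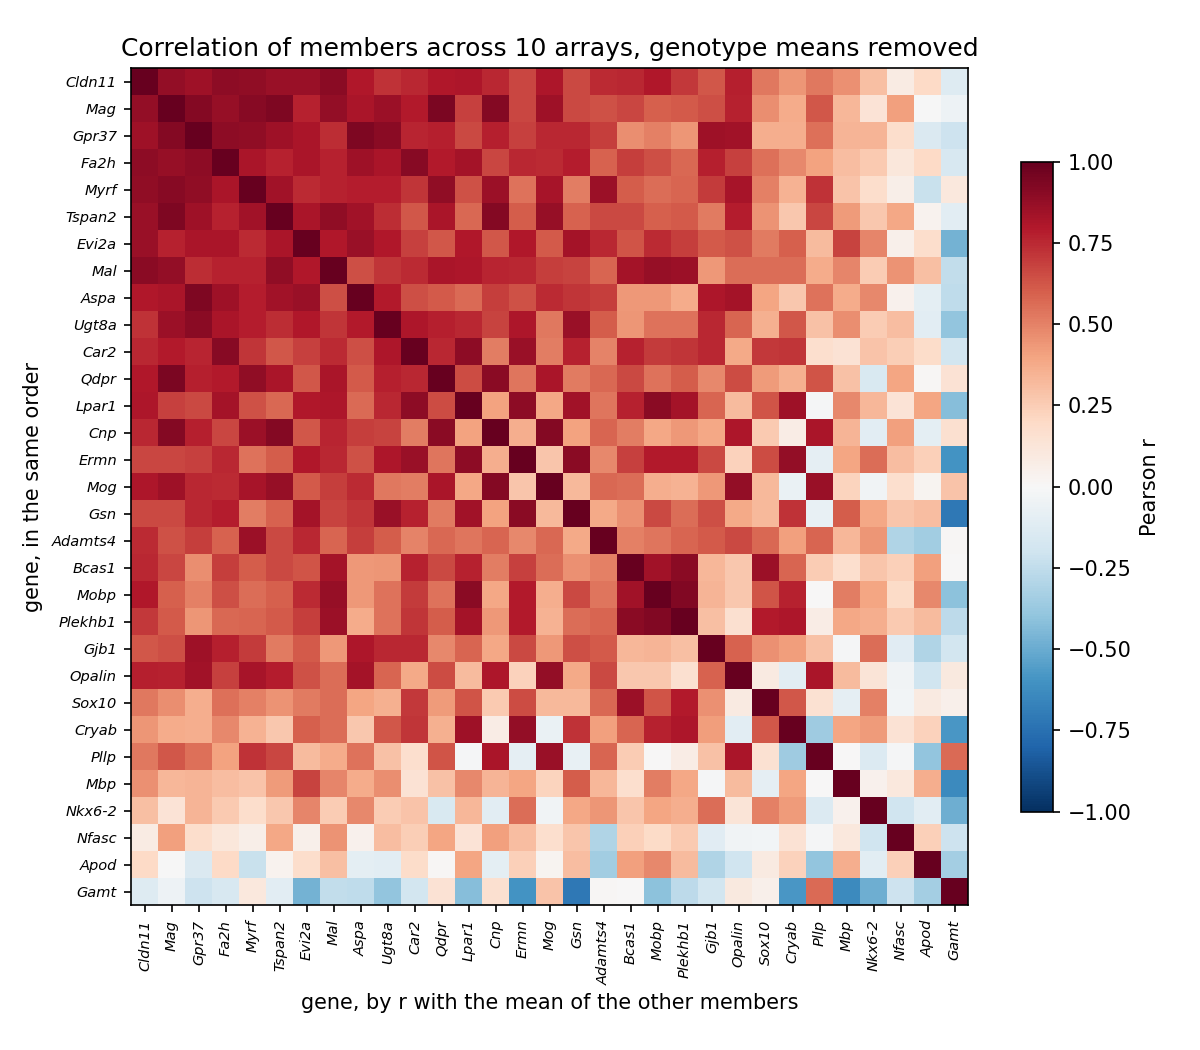
Pearson r between measured myelin genes across 10 arrays (5 Crtc1-/- and 5 WT) after removal of genotype means, ordered by r with the mean of the other members. A red block takes up most of the square, from Cldn11 and Mag at the top, and the pale or blue rows at the bottom are Nfasc, Apod and Gamt.

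Other probe sets for the same genes gave a partly independent reading, on the same arrays. The 31 genes had 70 probe sets that name only 1 of them, and of the 39 that were not the brightest, 30 had a log2 fold change above 0 and 0 were called. Of the 29 in the upper part of the range, above the median level of all probe sets, 24 were above 0, with a median of 0.13. Of the 19 genes with several probe sets 12 were above 0 on all of them, among them Mobp, Gjb1, Ermn and Sox10, and 6 had probe sets in both directions (Opalin, Bcas1, Evi2a, Cryab, Adamts4 and Mbp). The 3 probe sets of Nfasc were all below 0. In Opalin, Bcas1, Evi2a and Cryab the probe set below 0 had a log2 fold change between −0.02 and −0.003 and was dimmer than the median of all probe sets. With the average over a gene's probe sets the log2 fold change was 0.21 for Adamts4, 0.21 for Opalin, 0.07 for Bcas1, 0.09 for Evi2a, 0.09 for Cryab and 0.12 for Sox10. For Adamts4 the probe sets disagreed: 1452595_at gave 0.50, whereas 1455965_at, at a similar level (6.64 ± 0.33 in Crtc1-/- mice, against 6.73 ± 0.18 in WT mice, SD, n = 5 each), gave −0.09. The position of Adamts4 at the head of the list therefore holds for 1 of its 2 probe sets.

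Mbp had 8 probe sets, which split by brightness. The 6 brightest, all above 98.0% of probe sets, had log2 fold changes of 0.04 to 0.14, and the largest was that of the least bright of them, 1451961_a_at. Probe set 1425264_s_at read 8.35, 8.86, 8.69, 8.96 and 8.60 in Crtc1-/- mice 1 to 5, against 9.32, 9.19, 9.13, 9.04 and 9.21 in WT mice 1 to 5. All mutants lay below all controls, the opposite of the bright probe sets, with a log2 fold change of −0.49 (SE 0.10) and an adjusted p of 0.108 over all probe sets in limma. The least bright of the 8, 1425263_a_at, gave −0.30 (SE 0.16) with overlapping groups. Neither followed the other myelin genes among animals (r with the mean over the genes 0.08 and 0.14), and the annotation used here does not say which Mbp transcripts each probe set reads.

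**Figure D4:**
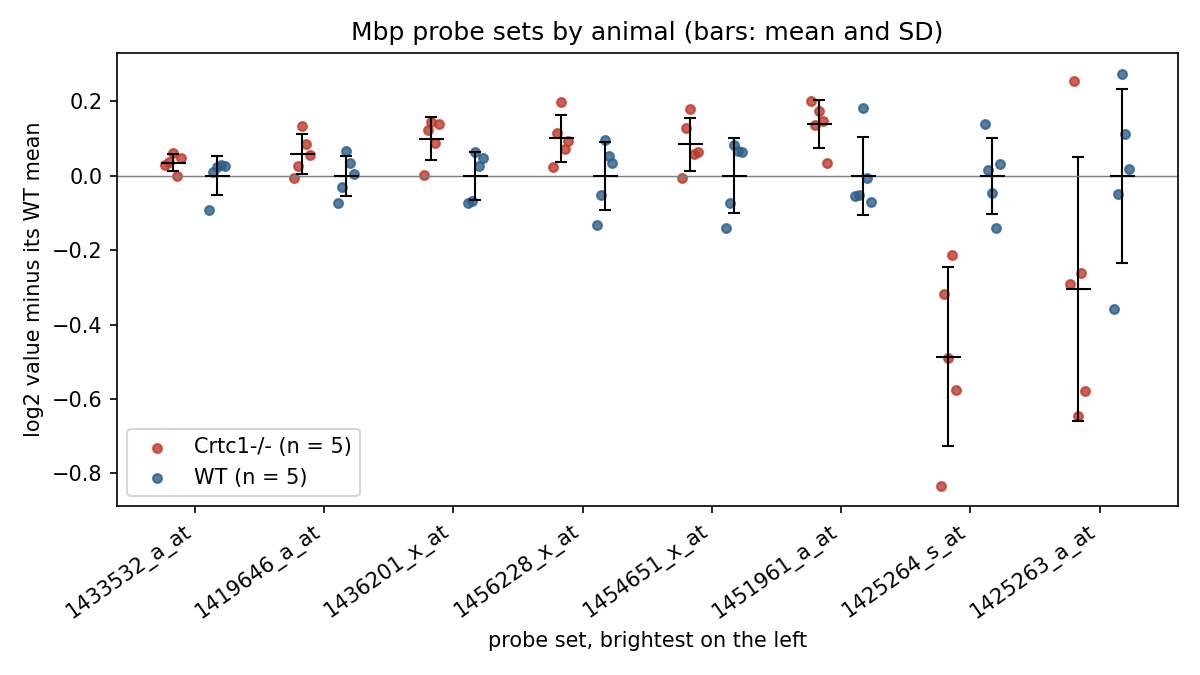
Values of the 8 Mbp probe sets in each animal, as the log2 value minus the WT mean of that probe set (Crtc1-/- left, WT right, n = 5 each, bars mean and SD), brightest on the left. The 6 brightest sit slightly above 0 in Crtc1-/- mice, while for 1425264_s_at every Crtc1-/- animal is below every WT animal.

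A wider list of 56 further myelin and mature oligodendrocyte genes, 52 of them measured, read the same way. It describes the same cell type on the same arrays and was chosen with earlier results known, so it is no independent evidence. Of the 52 measured genes, 48 had a log2 fold change above 0, against 48.4% of all genes, with a median of 0.14. At an unadjusted p below 0.05, 22 were higher, against 4.33% of all genes. After correction 0 were called, where 0.308% of all genes were called higher. The smallest p belonged to Edil3 (0.19, limma, adjusted p = 0.121), an extracellular matrix protein, Erbb3 (0.30, adjusted p = 0.154), a neuregulin receptor, S1pr5 (0.32, adjusted p = 0.158), the sphingosine phosphate receptor of oligodendrocytes, and Tmem98 (0.24, adjusted p = 0.177), a membrane protein that binds MYRF. With genotype means removed, the mean of these genes followed the mean of the 31 across the 10 arrays (r = 0.95, rho = 0.98, exact permutation within genotype, p = 0.000556 and p = 0.000625, adjusted p = 0.00778 and p = 0.00875 over 14 relations), and r was 0.93 without the 2 arrays farthest from the centre, WT 2 and Crtc1-/- 3.

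Earlier stages of the lineage had medians near 0. Markers of committed and newly formed oligodendrocytes had a median log2 fold change of 0.03 (10 of 15 above 0) and those of precursors 0.02 (7 of 13 above 0), with 0 called in either. The named committed genes were Rap2a (−0.14), Mpzl1 (0.07), Fyn (0.06) and Enpp6 (0.14), and the named precursor genes were Ptprz1 (0.08), Tnr (−0.12), Cspg4 (0.13) and Vcan (0.11). The difference between the stages and the mature genes was not tested, and it depends on where genes were listed. Within genotypes the median r over pairs of genes was 0.03 in the committed list and 0.14 in the precursor list, against 0.56 among the members. The genes of these 2 lists thus hardly moved together, and their medians and means are weak measures of a stage. Sox10, which acts throughout the lineage, is a member. The wider myelin list holds the transcription factors Olig2 (0.18), Nkx2-2 (0.18), Sox8 (0.11), Olig1 (0.08) and Zfp536 (−0.02). Across arrays both stages had a low r with the 31 genes (r = 0.29 and rho = 0.41 for committed cells, exact permutation p = 0.438 and p = 0.278, adjusted p = 0.766 and p = 0.688, and r = −0.15 and rho = −0.18 for precursors, exact permutation p = 0.706 and p = 0.661, adjusted p = 0.945 and p = 0.771; r = 0.18 and −0.20 without the 2 farthest arrays).

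Among other cells, astrocyte markers were above 0 for 10 of 12 genes, with a median of 0.08 and Gfap, the filament protein of astrocytes, the highest at 0.22 (limma, adjusted p = 0.269). Medians were 0.01 for microglia (8 of 11 above 0), 0.03 for endothelium (9 of 11) and −0.01 for neurons (5 of 12). Within neurons the neurofilament genes Nefm and Nefl stood at 0.23 and −0.11 without passing the test. Medians of the regional lists were 0.15 for upper layers (4 of 7 above 0), −0.13 for hippocampus (5 of 11), −0.02 for striatum (3 of 8), 0.05 for thalamus (6 of 8), 0.04 for choroid plexus (6 of 8) and 0.04 for meninges (5 of 7). Of the upper layer genes Lamp5 (0.25, adjusted p = 0.0120) and Rasgrf2 (0.26, adjusted p = 0.0152) rose, and of the hippocampal genes Fibcd1 (−0.41, adjusted p = 0.00922) and Fam163b (−0.28, adjusted p = 0.0188) fell, all in limma. The hippocampal mean lay at 4.64 to 4.84 in Crtc1-/- mice, against 4.81 to 4.97 in WT mice. This list was dim: its mean was below the array medians of 5.29 to 5.32, and its dimmest gene was above only 9.2% of probe sets. For thalamus the mean lay at 7.12 to 7.26 in Crtc1-/- mice, against 7.05 to 7.10 in WT mice, so the groups did not overlap. That mean leaned on Slc17a6, whose log2 fold change of 0.59 was far above the list's median of 0.05. The upper layer mean lay at 9.62 to 9.73 in Crtc1-/- mice, against 9.52 to 9.61 in WT mice, also without overlap. The astrocyte mean lay at 9.86 to 9.98 in Crtc1-/- mice, against 9.77 to 9.90 in WT mice. Deep layer markers had a median of −0.01 (3 of 8 above 0), and their mean had the next highest r with the myelin mean (r = 0.74, rho = 0.68, exact permutation p = 0.0347 and p = 0.0527, adjusted p = 0.243 and p = 0.369, and r = 0.66 without the 2 farthest arrays). The upper layer mean went the other way (r = −0.58, rho = −0.55, exact permutation p = 0.0949 and p = 0.113, adjusted p = 0.443 and p = 0.396, and r = −0.78 without the 2 farthest arrays). For the lists not named with an r the adjusted p was 0.396 or more. The thalamic gene Slc17a6, a vesicular glutamate transporter, stood at 0.59 (limma, adjusted p = 0.0574). The part of tissue composition in the myelin difference was not tested beyond covariates: Gjb1 was called with the striatal marker mean as a covariate (limma, adjusted p = 0.0242) and no member was with the hippocampal, astrocyte or neuronal mean. Thalamic and upper layer means were not run as covariates.

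**Figure D5:**
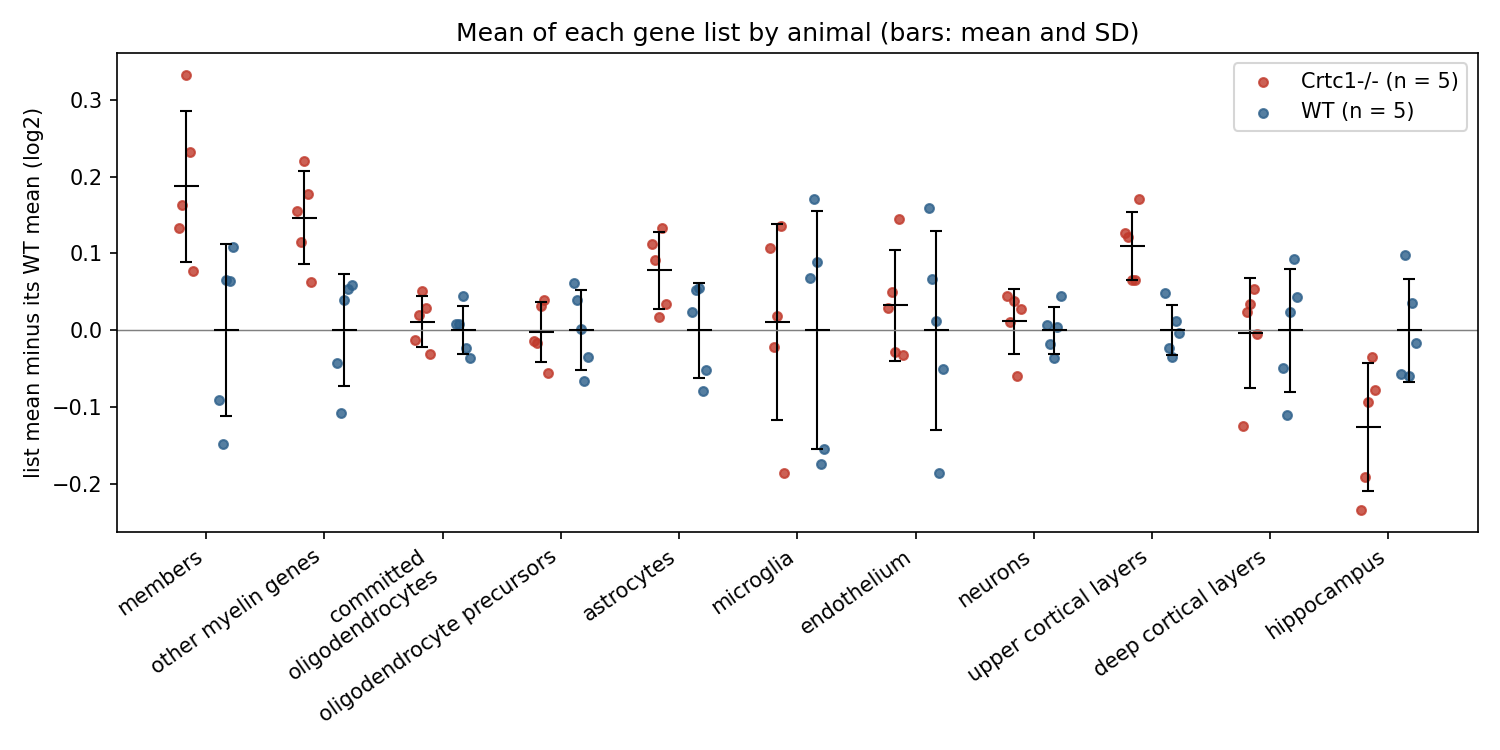
Mean of each gene list in each animal minus the WT mean of that list (log2; Crtc1-/- left, WT right, n = 5 each, bars mean and SD). Both myelin lists are shifted upward in Crtc1-/- mice with overlap or near overlap of the groups, the committed and precursor lists are centred near 0, and the upper layer and hippocampal lists shift in opposite directions.

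RNA quality, read as the 3′ minus 5′ difference of control probe sets, overlapped between the genotypes. For β-actin it was 0.73 ± 0.02 in Crtc1-/- mice, against 0.76 ± 0.06 in WT mice (SD, n = 5 each, exact permutation test, p = 0.270, adjusted p = 0.540), and for GAPDH 0.09 ± 0.04 in Crtc1-/- mice, against 0.10 ± 0.01 in WT mice (SD, n = 5 each, exact permutation test, p = 0.730, adjusted p = 0.730). Within genotypes the actin measure had r = −0.41 and rho = −0.35 with the myelin mean (exact permutation p = 0.328 and p = 0.368, adjusted p = 0.656 over the 2 controls, and r = −0.54 without the 2 farthest arrays).

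Apart from the members, genes brighter than the median were ranked by the r of their genotype-centred values with the myelin mean. The 10 with the highest r were Rnf13, Tmem88b, Phldb1, Stmn1, Slc44a1, Plekhh1, Tmcc3, Slain1, Ccp110 and Acp2. Of these, Tmem88b and Slc44a1 also belong to the wider myelin list. The r of these 10 genes over 10 arrays ran from 0.95 (Rnf13, a ubiquitin ligase) to 0.86 (Acp2, a lysosomal phosphatase). The genotype difference varied among them: Tmem88b and Plekhh1 had log2 fold changes of 0.26 and 0.22, but Stmn1, the microtubule regulator stathmin, had −0.01 and Acp2 had −0.06. The 5 genes with the most negative r were Cox6a1 (−0.97), a subunit of cytochrome c oxidase, Tomm34 (−0.96), Gm12338 (−0.93), Cdc37 (−0.93) and Gpr180 (−0.92), with log2 fold changes between −0.06 and 0.01. These genes were the extremes of a ranking over all bright genes other than the members, so the r values have no test.

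Promoter sequence was read for the genes with a RefSeq window (GRCm38.p6, 250 bases before to 50 after the start), which covered 22 of the 31 genes in 34 windows. CREB, the partner of CRTC1, binds the palindrome TGACGTCA, and this was in 0 of the 22 genes, where 2.03% of all genes had it. Its core TGACG, searched on both strands, was in 3 of them (Ermn, Mal and Mog), or 13.6% against 23.0% of all genes. The MYRF motif, searched as CTGGCAC or CTGGTAC on both strands, was in 6 (Cnp, Gamt, Lpar1, Mag, Mog and Opalin), or 27.3% against 8.10% of all genes, and a SOX motif, ACAAAG or ACAATG on both strands, in 10, or 45.5% against 31.7%. Genes can have several windows, and all genes had 32851 windows for 27025 genes. Counted by window, the shares were 8.8% against 20.8% for TGACG, 20.6% against 7.1% for MYRF and 38.2% against 28.6% for SOX. A match describes letters in the window only. The windows of Opalin and Mog with the MYRF match in capitals (on the opposite strand, so printed as the reverse complement), and of Gjb1 with the SOX match in capitals, are printed because these genes head the non-compact role or are its best known surface protein. They lie at chr19:41077064-41077363 (minus strand), chr17:37023349-37023648 (minus strand) and chrX:101376126-101376425 (plus strand), each written 5′ to 3′ on the gene's strand.
Opalin: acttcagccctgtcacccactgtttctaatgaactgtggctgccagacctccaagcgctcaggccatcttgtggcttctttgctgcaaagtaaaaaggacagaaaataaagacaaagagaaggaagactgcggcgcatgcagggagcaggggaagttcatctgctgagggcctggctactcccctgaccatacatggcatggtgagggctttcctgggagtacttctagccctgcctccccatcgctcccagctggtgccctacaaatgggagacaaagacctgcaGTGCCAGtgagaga
Mog: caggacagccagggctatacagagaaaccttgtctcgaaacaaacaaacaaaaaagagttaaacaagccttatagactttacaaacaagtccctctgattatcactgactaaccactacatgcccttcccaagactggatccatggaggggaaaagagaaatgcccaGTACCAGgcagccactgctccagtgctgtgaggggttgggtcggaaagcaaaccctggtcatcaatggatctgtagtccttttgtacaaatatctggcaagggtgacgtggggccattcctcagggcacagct
Gjb1: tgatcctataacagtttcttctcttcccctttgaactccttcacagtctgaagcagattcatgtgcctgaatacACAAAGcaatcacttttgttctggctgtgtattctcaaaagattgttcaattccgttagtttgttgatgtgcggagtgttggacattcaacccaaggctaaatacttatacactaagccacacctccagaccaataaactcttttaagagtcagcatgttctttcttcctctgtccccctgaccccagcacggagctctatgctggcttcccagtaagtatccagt
Counted from the start, the MYRF match began at position −83 in Mog and 37 in Opalin, and the SOX match at position −176 in Gjb1.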

How the data were processed

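Total RNA from the cortex of 5 Crtc1-/- and 5 WT mice was labelled with the 3′ IVT Express kit and hybridized to 10 Affymetrix arrays, and arrays with a high normalized unscaled standard error had been excluded by the authors. The deposited values are on a log2 scale, 1 for each probe set on each array, with array medians between 5.29 and 5.32. The background correction, normalization and summarization are not given in the sources used here. Values lay between 2.14 and 14.26, and the number of arrays limits the precision.

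Of 45101 probe sets, 64 controls were left out. The annotation names 1 gene for 34945 probe sets, several for 932 and none for 9160. Each of 18193 genes was represented by its brightest probe set (by the mean over arrays) among those naming only that gene, and the symbols of all 31 measured members matched the RefSeq gene table (GRCm38.p6). Differences are Crtc1-/- minus WT from limma 3.58.1 (lmFit, eBayes; R 4.3.3), two-sided, with Benjamini-Hochberg correction over all genes and a threshold of 0.05, and were tested on simulated data first. Single values used an exact permutation test over 252 splits, and correlations with genotype means removed used all 14400 rearrangements within genotypes, in a family of 14 lists. Per the study's methods, experiments were run one after another on several batches of mice and the data were pooled. Nothing in the labels says whether animals shared a batch, a litter or a dissection day. The p-values therefore measure the spread between these animals only.

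The members, lists and tests were chosen with earlier results of these data known, so none is independent evidence. The text accounts for every measured member and gives each animal's value for Mbp, Mog, Sox10, Myrf, the 5 largest and 5 smallest log2 fold changes. Up to 4 genes with the smallest p are named of a list, as are the 10 genes that correlated most with the member mean and the 5 that correlated most negatively. Values of 1425264_s_at and the second Adamts4 probe set were chosen after they were seen. Alternatives were quantile normalization, centring on medians, omission of dim probe sets and of those that may cross-hybridize, the average over a gene's probe sets, all probe sets tested, array weights, a block for the replicate number, another or no variance prior, marker means as covariates, and leaving out each array. The marker lists were committed oligodendrocytes, precursors, astrocytes, microglia, endothelium, neurons, deep and upper cortical layers, hippocampus, striatum, thalamus, choroid plexus and meninges.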

Additional observations from a re-analysis of the deposited data

Results flagged for a closer look

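Of 64 groups of 5 values (each measured gene and the mean over the genes, in each genotype), 4 held an animal set apart by a gap larger than Dixon's critical value of 0.71 of the group's range, and chance gives about 1 in 20 groups. Nkx6-2 read 6.05 in Crtc1-/- 4, where the other Crtc1-/- mice read 5.51 to 5.59. Nfasc read 9.56 in Crtc1-/- 2, where the other Crtc1-/- mice read 9.26 to 9.31. Cryab read 11.19 in WT 5, where the other WT mice read 10.84 to 10.93. Mbp read 13.45 in WT 1, where the other WT mice read 13.56 to 13.58, and without this animal its log2 fold change was 0.01 in place of 0.04.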

How the results depend on the processing

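The mean difference over the genes stayed between 0.15 and 0.21 in the 16 alternatives run for it, and 28 of the 31 genes kept a log2 fold change above 0 in all 24. The count of called members was 1 with a trended and robust variance prior (Apod, adjusted p = 0.0448) and 1 with the striatal marker mean as a covariate (Gjb1, adjusted p = 0.0242), and 0 in all others, including each array left out (0 to 0). Relative to the member mean 0 members were called in the 20 alternatives run for it, which leave out the 4 covariates of marker means. The count at an unadjusted p below 0.05, a result added after the values were seen, was 8 with the hippocampal marker mean as a covariate, 20 with the astrocyte and 20 with the striatal mean, 21 with the trended and robust prior and 8 to 20 with an array left out. Members above 0 numbered 30 to 31 with an array left out. The median r between members was 0.44 with the average over a gene's probe sets and 0.49 (without Crtc1-/- 3) to 0.63 (without Crtc1-/- 1) with an array left out. By over 1.5 times, 11 genes had larger log2 fold changes and 1 a smaller one or a turned sign with the astrocyte mean as a covariate, and 3 had larger and 8 smaller ones with the hippocampal mean (smaller for Mog, Mag, Cnp, Opalin, Tspan2, Qdpr, Pllp and Gamt). Signs turned for 3 genes near 0: Mbp at −0.034 with the average over its probe sets, Gamt at −9.70e-05 with the astrocyte mean as a covariate, and Nfasc at 0.0053 with array weights and −0.058 to 0.030 with an array left out. For Mbp the 2 probe sets below 0, the least bright of its 8, enter that average. For the others the cause was not tested. The replicate numbers did not pair the animals (r of deviations −0.26 to 0.06, and 0 of 5 WT arrays correlated best with the mutant of their number). With the replicate number as a block 0 members were called (smallest adjusted p = 0.186), 16 were higher at an unadjusted p below 0.05 and the mean difference was 0.19. The number of animals, 5 per genotype, limits what the test can call.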
